A study of Arabidopsis thaliana with 5 samples.

Results

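Calmodulin-like proteins (CMLs) are relatives of calmodulin that bind calcium through EF-hand motifs and pass a rise in cytosolic calcium on to the proteins they contact. Plant cells also read calcium with the calcium-dependent protein kinases (CPKs), which carry sensor and kinase in a single chain, and with the calcineurin B-like proteins (CBLs), which act through their partner kinases (CIPKs). Wounding, touch, low oxygen and microbial signals all raise cytosolic calcium in plants, and many CML genes are known as rapid transcriptional responders to such stimuli. Members were chosen by name: a probe set counted when the platform annotation gave it a single gene symbol made of CML, CPK, CDPK, CIPK or CBL and a number. The rule found 7 of 13350 genes that are named alone for a probe set (22810 probe sets in all), and all 7 were CML genes, namely CML23, CML30, CML37, CML38, CML41, CML42 and CML43. No symbol of the CPK, CDPK, CIPK or CBL form was named by the annotation used here (0 probe sets for each), so the kinase and CBL families were not analysed here, and the members are called calmodulin-like genes below. Each member was represented by 1 probe set, whose name carries none of the suffixes that mark probes shared between genes on this array.

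The comparison set 3 samples of protoplasted and sorted root cells against 2 samples of intact whole roots, all from Arabidopsis thaliana of the Columbia ecotype and measured on Affymetrix ATH1 arrays. Per the labels, both groups started from seedlings raised at pH 5.7 for 5 days and moved to pH 4.6 for 24 h, so low pH is shared by all 5 samples. Protoplasting removes the cell wall with enzymes, and the cells were then passed through a sorter. Labelled RNA came from about 50000 cells for each sorted sample and from 1 µg of total RNA for each whole-root sample, by a one-cycle protocol in the whole roots. The labels do not name a sort gate or a reporter line. Nor do they tie a replicate to a culture of its own, so a p-value here reflects the spread among these samples, which may be technical. The question is how calcium-sensor transcripts measured in freed and sorted cells differ from those measured in whole roots. RNA input differed between the groups along with freeing and sorting, so their effects cannot be told apart.

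Values are MAS5 signals, linear brightness units that the authors had scaled to the same trimmed mean on each array. Differences are log2 sorted protoplasts minus whole roots, tested with limma over 13647 probe sets, and a probe set was called when its Benjamini-Hochberg adjusted p was under 0.05. Probe sets with a mean log2 value below a bound that equals a signal of 43.3 were not tested. In this comparison 60.6% of tested probe sets were called, 34.1% higher and 26.5% lower, so a call on its own sets no gene apart. Control probe sets, gene length, green-tissue genes and some root cell type markers moved with the groups. For an actin control, the signal near the 3′ end over that near the 5′ end came to 19.8 to 29.3 on the 3 sorted arrays and to 3.08 to 3.29 on the 2 whole-root arrays. The ratio was higher on every sorted array than on both whole-root arrays for all 6 controls of this kind, by least for a GAPDH control (1.33 to 1.51 in sorted protoplasts, 1.05 to 1.15 in whole roots). Tested genes were put into 4 equal groups by length. Among the shortest group (up to 1758 bp, introns included), 16.1% were called higher and 49.6% lower, with a median log2 fold change of -0.58. All 7 members are short (647 to 1389 bp), and all 5 that were tested lay in that group. The array of sorted replicate 1 correlated less well with the other sorted arrays (r = 0.954 and 0.956 across probe sets) than those did with each other (0.987). Of 18 root cell type markers 8 were named by the annotation, and 4 of them lay at or above the bound on all 5 arrays. Of the 7 that were tested, 2 were called higher and 1 lower, beside 34.1% and 26.5% of all tested probe sets. They were the stele marker LHW (log2 fold change 1.34, limma adjusted p = 0.000869), the stem cell niche marker ACR4 (2.13, adjusted p = 0.000396) and the cortex marker AT1G62510 (-1.10, adjusted p = 0.00842). Both whole-root signals of ACR4 (15.8 and 20.8) and all 3 sorted signals of AT1G62510 lay below the bound. Of 2 named green-tissue markers both fell, and LHCB4.1, a light-harvesting protein gene, had signals of 45.5 to 60.8 in sorted protoplasts and 409 to 454 in whole roots. The part of probe position, gene length, green tissue and root cell types in the results below was not tested, except where a value with the length trend removed is given. In bulk samples, fewer cells of a type and less RNA per cell cannot be told apart.

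The calmodulin-like genes did not move as a block. CML38 and CML30 rose in sorted protoplasts, CML42 and CML43 fell, and CML23 did not pass the test. CML37 and CML41 were too dim on average to be tested. The groups did not overlap for 6 of the 7 members, 3 with higher and 3 with lower signal in sorted protoplasts, while 61.8% of all probe sets other than controls were without overlap, 30.9% in each direction. Of the 5 tested members 4 were without overlap, as were 75.8% of all tested probe sets. Among the 5 tested members 2 were called higher and 2 lower, shares to be read beside the 34.1% and 26.5% of all tested probe sets. Their median log2 fold change was 0.40, beside 0.15 for all tested probe sets and -0.58 for the shortest length group, to which all 5 belong. Of that length group 16.1% were called higher and 49.6% lower. Members that were bright in a single sample group could pass the bound through that group alone. CML38 and CML42 had the largest differences of the 5, in opposite directions and in the tails of the distribution of all tested probe sets.

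**Figure D1:**
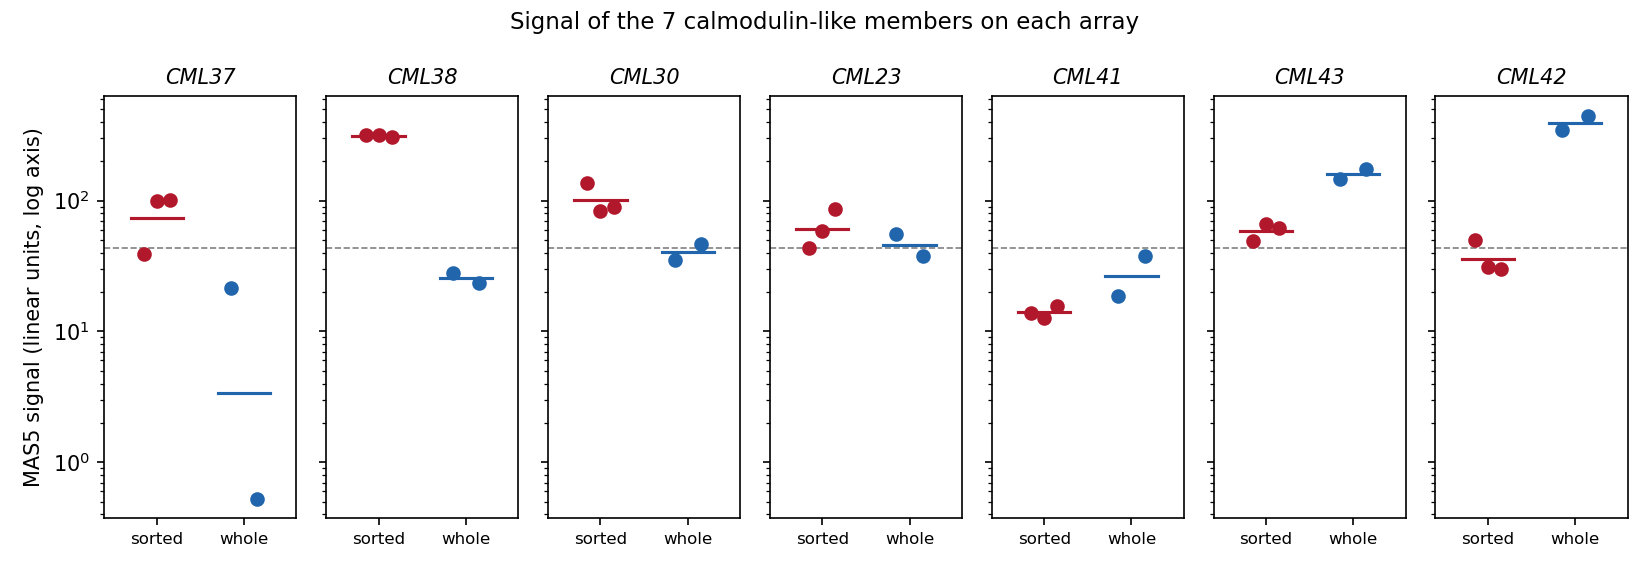
MAS5 signal (linear units on a log axis) of each calmodulin-like gene in the 3 sorted protoplast samples (red, left) and the 2 whole-root samples (blue, right). Short bars are geometric means and the dashed line is the filter bound of 43.3. CML38 lay between 308 and 317 in sorted protoplasts and CML42 between 349.7 and 446 in whole roots, and CML23 is the member whose groups overlapped.

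CML38 is known in Arabidopsis as a gene strongly induced by low oxygen and by wounding, whose protein gathers in stress-related granules with messenger RNA. Its signals were 317, 317 and 308 in sorted protoplasts, against 27.8 and 23.6 in whole roots. The sorted values were nearly equal, and sorted replicate 1 lay with the others here. The log2 fold change was 3.61 (SE 0.188, 95% interval 3.18 to 4.05, limma adjusted p = 1.01e-05), which was above that of 99.7% of tested probe sets. Both whole-root signals lay below the bound, where MAS5 values are imprecise. Set against the bound in place of the whole-root signal, the gene was 7.24-fold higher in sorted protoplasts, while the fitted ratio was 12.3. Each sorted array exceeded each whole-root array (6 of 6 pairings), by log2 differences of 3.47 to 3.74.

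CML37 is a close relative of CML38 that is known for induction by wounding and insect feeding and for a role in jasmonate and drought responses. Its signals were 38.8, 99.5 and 101 in sorted protoplasts, against 21.7 and 0.526 in whole roots. Sorted replicate 1 was the lowest sorted sample and the only one below the bound, and all sorted values lay above both whole-root values. The mean over all samples put the gene under the filter, so it has no call in the comparison as fitted. With no filter its log2 fold change was 4.44 (SE 1.35, limma adjusted p = 0.0309), but 1 of the whole-root signals behind it was 0.526, far below the other. Single pairs of arrays gave log2 differences between 0.84 and 7.59, so the size of the difference is not determined by these data.

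CML38 has a neighbour on the chromosome, AT1G76640, which the RefSeq gene table lists as CALMODULIN LIKE 39 (the table also gives that synonym to CML37). AT1G76640 was singled out after its values were seen. It had signals of 173, 240 and 201 in sorted protoplasts, against 1.11 and 1.91 in whole roots. No array of the sorted group came near the whole-root values, yet the low whole-root signals kept its mean under the filter. With no filter the log2 fold change was 7.12 (SE 0.428, limma adjusted p = 2.12e-05). Against the bound the gene was 4.68-fold higher, and with 32 signal units added to every value it was tested and called higher at a log2 fold change of 2.81 (adjusted p = 6.26e-06). CML37, CML38 and AT1G76640 thus each had all sorted signals above all whole-root signals. The same held for CML30 and for 30.9% of all probe sets other than controls.

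CML30, whose protein carries a targeting sequence and is found in mitochondria, had signals of 137, 82.7 and 89.8 in sorted protoplasts, against 35.2 and 46.6 in whole roots. Sorted replicate 1 was the highest, and the lowest sorted value still exceeded the highest whole-root value. The log2 fold change was 1.31 (SE 0.292, 95% interval 0.63 to 1.99, limma adjusted p = 0.00558), above that of 89.7% of tested probe sets. It did not pass once whole-root replicate 1 was left out (log2 fold change 1.11, adjusted p = 0.0528), and 1 of the whole-root values lay below the bound. At 647 bp CML30 was the shortest member, and with the length trend removed its log2 fold change was 2.68.

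CML23 acts with its close relative CML24 in nitric oxide accumulation and flowering time. It had signals of 43.3, 58.3 and 86.6 in sorted protoplasts, against 55.3 and 37.4 in whole roots. The groups overlapped, with 1 whole-root value inside the sorted range and the other below it. The log2 fold change was 0.40 (SE 0.351, limma adjusted p = 0.347), with a 95% interval of -0.41 to 1.22 that includes falls as well as rises. With the length trend removed it passed the test (log2 fold change 1.44, adjusted p = 0.00731).

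**Figure D2:**
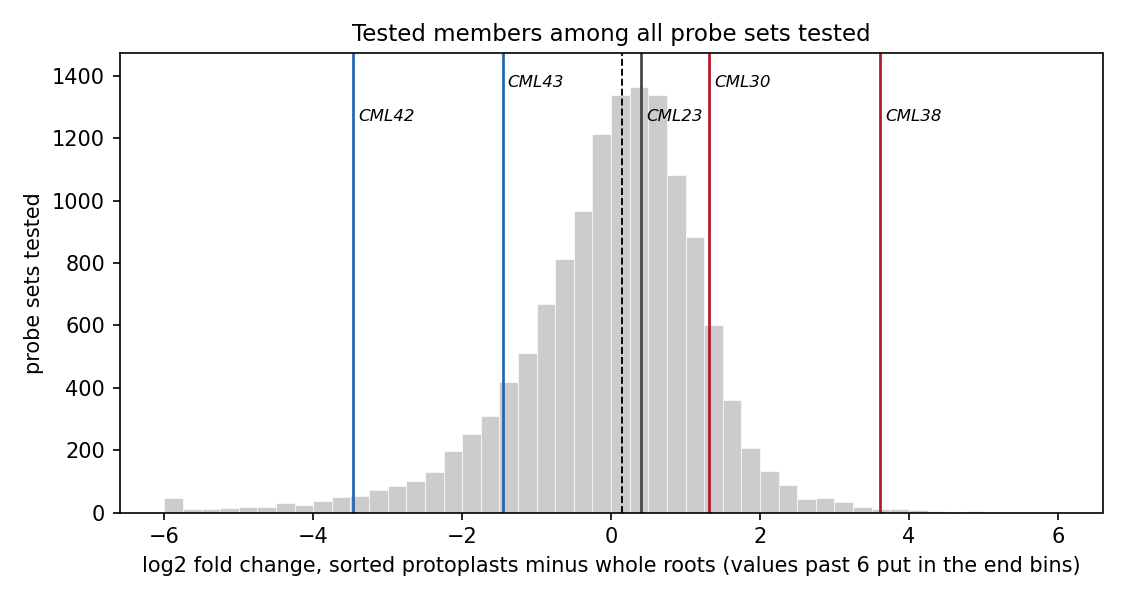
Histogram of log2 fold changes (sorted protoplasts minus whole roots) of the 13647 tested probe sets, in bins of 0.25, with values past 6 in either direction placed in the end bins. Vertical lines mark the 5 tested members (red called higher, blue called lower, dark grey not passed), and the dashed line is the median of all tested probe sets, 0.15. CML38 (3.61) and CML42 (-3.46) lie in the tails, and CML23 (0.40) near the middle.

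CML42 is known for a part in trichome branching in leaves and in the response to insect feeding. It had signals of 49.7, 31.1 and 29.9 in sorted protoplasts, against 349.7 and 446 in whole roots. The highest sorted signal was sorted replicate 1, the only one above the bound, and it stood far below both whole-root samples. The log2 fold change was -3.46 (SE 0.280, 95% interval -4.11 to -2.81, limma adjusted p = 5.00e-05), and 1.99% of tested probe sets had a lower value. Set against the bound the gene was 9.11-fold lower in sorted protoplasts, while the fitted ratio of whole roots to sorted protoplasts was 11.02. The green-tissue gene RCA, Rubisco activase, had a log2 fold change of similar size (-3.32), with signals of 38.3 to 51.1 in sorted protoplasts and 393 to 517 in whole roots. Whether green tissue had a part in the fall of CML42 was not tested.

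CML43, a close relative of CML42 that is known for expression in the root tip and for induction during the immune response, moved the same way by less. Its signals were 48.8, 66.3 and 61.4 in sorted protoplasts, against 147 and 175 in whole roots. All 5 signals lay above the bound, and the groups did not overlap. The bound is a filter cut and not a detection limit, and whether dimness limited the sorted values was not tested. The log2 fold change was -1.46 (SE 0.230, 95% interval -1.99 to -0.93, limma adjusted p = 0.00104), a fitted ratio of 2.75 between whole roots and sorted protoplasts. With the length trend removed it was -0.46 and did not pass (adjusted p = 0.0934).

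CML41, whose protein sits at plasmodesmata and promotes callose deposition during immune responses, had signals of 13.8, 12.7 and 15.7 in sorted protoplasts, against 18.7 and 37.8 in whole roots. All 5 values lay under the bound, so the gene was measured as dim in both groups, and the sorted values lay below the whole-root ones. With no filter its log2 fold change was -0.92 and did not pass (SE 0.515, limma adjusted p = 0.197).

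Across the settings tried, the calls of CML38 and CML42 held in every setting that tested them. Their log2 fold changes ranged over 2.58 to 4.19 for CML38 and over -3.70 to -2.43 for CML42. With a filter at 60% of probe sets no member was bright enough to be tested. Where the test asked for a log2 fold change beyond 1, neither CML30 nor CML43 passed (adjusted p = 0.616 and 0.212).

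**Figure D3:**
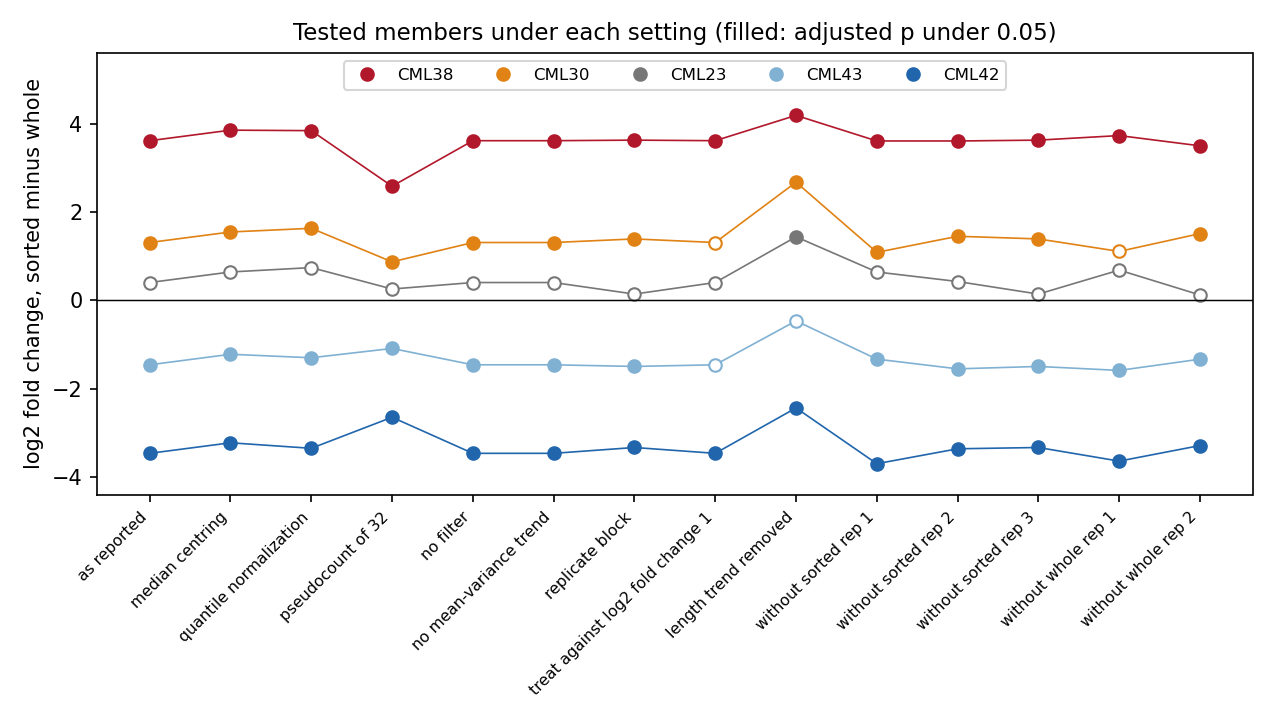
Log2 fold change (sorted protoplasts minus whole roots) of the 5 tested members under each setting on the horizontal axis, with filled points where the adjusted p was under 0.05 and open points where it was not. CML38 and CML42 are filled in every column, CML30 is open in the test for changes beyond a log2 of 1 and without whole-root replicate 1, CML43 is open in that test and with the length trend removed, and CML23 is filled in the last of these alone.

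Most tested loci of the wider calmodulin-like family fell in sorted protoplasts. A list of 50 family loci, written from textbook knowledge, matched 28 further probe sets, which the annotation names by locus code and not as CML genes. Of these 28 loci, 13 were tested, 0 were called higher, 10 lower and 3 did not pass, beside 34.1% and 26.5% of all tested probe sets. The median log2 fold change of the 13 was -1.12, against 0.15 for all tested probe sets and -0.58 for the shortest genes, to which 10 of the 13 belong. Of that shortest group 16.1% were called higher and 49.6% lower, and 7 of the 10 loci called lower belong to it. The lowest value was that of AT3G10300, with signals of 15.4, 32.1 and 31.1 in sorted protoplasts, against 272 and 294 in whole roots. Its log2 fold change was -3.51 (SE 0.352, limma adjusted p = 0.000128). All sorted values of AT3G10300 lay below the bound, so it passed the filter through whole roots alone, as did AT3G10190, also called lower. Set against the bound AT3G10300 was 6.52-fold lower in sorted protoplasts, while the fitted ratio of whole roots to sorted protoplasts was 11.4. Among the 15 that were not tested, 12 lay below the bound on every array, and the largest signal was that of AT1G76640 described above. With no filter 2 of the 28 were called higher (AT1G76640, and AT3G01830 at 1.49) and 12 lower. Both that were called higher lie among the 15 left untested by the filter, so the filter sets which rising loci are counted. With the length trend removed 1 of the 13 was called higher (AT3G25600) and 7 lower. Without sorted replicate 1, 2 or 3 the counts were 0 higher each time and 10, 9 and 8 lower. Without whole-root replicate 1 or 2, which leaves 1 whole-root sample, the median log2 fold change was -1.38 and -1.18. At an unadjusted limma p under 0.05 in the fit to all 5 samples the counts were 0 and 10. With 60.6% of all tested probe sets called, that threshold is little looser than the adjusted one.

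**Figure D4:**
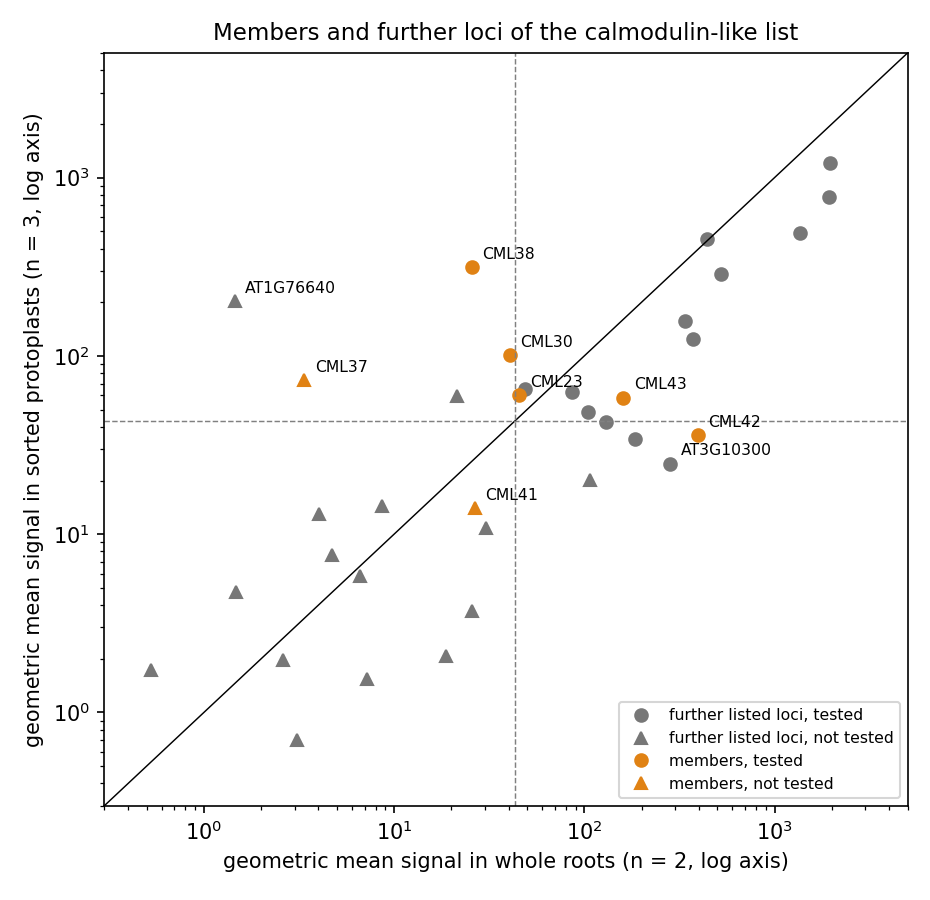
Geometric mean signal in sorted protoplasts (vertical, n = 3) against that in whole roots (horizontal, n = 2), both on log axes, for the 7 members (orange) and the 28 further loci of the family list (grey), with circles for tested and triangles for untested probe sets. The diagonal marks equal signal and the dashed lines the filter bound of 43.3. Most bright loci lie under the diagonal, and AT1G76640, CML37 and CML38 lie farthest above it.

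The annotation named some genes that act around the calcium sensors. CPK-related kinases share the kinase domain of the CPKs but have degenerate EF hands, and they bind calmodulin. Of 8 listed loci of this family 5 had a probe set, all 5 were tested, 3 were called higher, 0 lower and 2 did not pass (median 0.49), beside 34.1% and 26.5% of all tested probe sets. The largest rise was that of AT3G56760, with signals of 669, 472 and 407 in sorted protoplasts, against 211 and 243 in whole roots (log2 fold change 1.16, SE 0.226, limma adjusted p = 0.00301). All 5 genes lay in the longest of the 4 length groups, whose median was 0.43 and of which 44.6% were called higher and 14.6% lower. The count of 3 became 1 without sorted replicate 2 or 3, without either whole-root sample, and with the length trend removed. These loci come from the hand-written list, and the annotation gives them locus codes alone.

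IQ-domain (IQD) proteins bind calmodulin and act as scaffolds at microtubules and membranes. The list was added after the annotation had been read. Of 15 named IQD probe sets 13 were tested, 7 were called higher, 0 lower and 6 did not pass, beside 34.1% and 26.5% of all tested probe sets, with a median of 0.57. IQD18 rose most, with signals of 249, 225 and 262 in sorted protoplasts, against 39.4 and 72.5 in whole roots (log2 fold change 2.19, SE 0.272, limma adjusted p = 0.000332). Its groups were far apart, although 1 whole-root value lay below the bound. At an unadjusted limma p under 0.05 the counts of 0 lower were also 0, for the IQD genes and for the CPK-related kinases. That threshold is again little looser than the adjusted one. Leaving out sorted replicate 1, 2 or 3 gave 7, 7 and 6 IQD genes called higher and 1, 0 and 0 lower. Without whole-root replicate 1 or 2, which leaves 1 whole-root sample, the median log2 fold change was 0.74 and 0.58. With a filter at 60% of probe sets 5 IQD genes were tested, of which 3 were called higher and 0 lower. With the length trend removed the counts were 6 and 1. Both whole-root signals of iqd33 and of IQD24, which were called higher, lay below the bound, so these genes passed it through sorted protoplasts alone. Of the 13, 0 belong to the shortest length group and 5 to the longest. From the second shortest to the longest group, 29.2%, 41.7% and 44.6% of probe sets were called higher and 27.0%, 17.2% and 14.6% lower. The medians of these groups were 0.04, 0.35 and 0.43.

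Glutamate receptor-like (GLR) genes encode calcium-permeable channels, and GLR3.3 and GLR3.6 are known in Arabidopsis leaves for carrying calcium waves away from wounds. Of 8 named GLR probe sets 3 were tested, 1 was called higher, 1 lower and 1 did not pass (median -0.50), shares close to the 34.1% and 26.5% of all tested probe sets. GLR3.3 had signals of 166.2, 161 and 166.4 in sorted protoplasts, against 106 and 122 in whole roots. Its rise was small (log2 fold change 0.53, SE 0.177, limma adjusted p = 0.0310), and the call was lost without sorted replicate 2 or 3, without either whole-root sample (adjusted p = 0.0599 to 0.158) and with the length trend removed. GLR3.6 had a log2 fold change of -0.50 and did not pass (adjusted p = 0.100). ATGLR1.2 fell, with signals of 26.4, 31.8 and 16.2 in sorted protoplasts, against 121 and 121 in whole roots (log2 fold change -2.34, SE 0.337, adjusted p = 0.000673). All sorted values of ATGLR1.2 lay below the bound. Of the 5 GLR probe sets left untested, GLR3.5 had signals of 17.4 to 36.8 in sorted protoplasts and 70.4 to 72.7 in whole roots.

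Of 3 listed calmodulin-binding transcription factor loci that had a probe set, all 3 were tested, 0 were called higher and 1 was called lower, AT4G16150 (log2 fold change -0.81, SE 0.203, limma adjusted p = 0.00951). These counts stand beside 34.1% and 26.5% of all tested probe sets. Its signals were 77.2, 72.3 and 69.6 in sorted protoplasts, against 118 and 139 in whole roots, and it did not pass once whole-root replicate 2 was left out (adjusted p = 0.0800). AT1G53210, which RefSeq names as a sodium/calcium exchanger, rose, with signals of 3533, 3295 and 3521 in sorted protoplasts, against 1561 and 2042 in whole roots (log2 fold change 0.95, SE 0.151, adjusted p = 0.00108). CaS, a calcium-sensing protein of the chloroplast thylakoid, was not tested. It had signals of 1.77 to 11.5 in sorted protoplasts and 22.6 to 49.8 in whole roots, mostly below the bound.

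**Figure D5:**
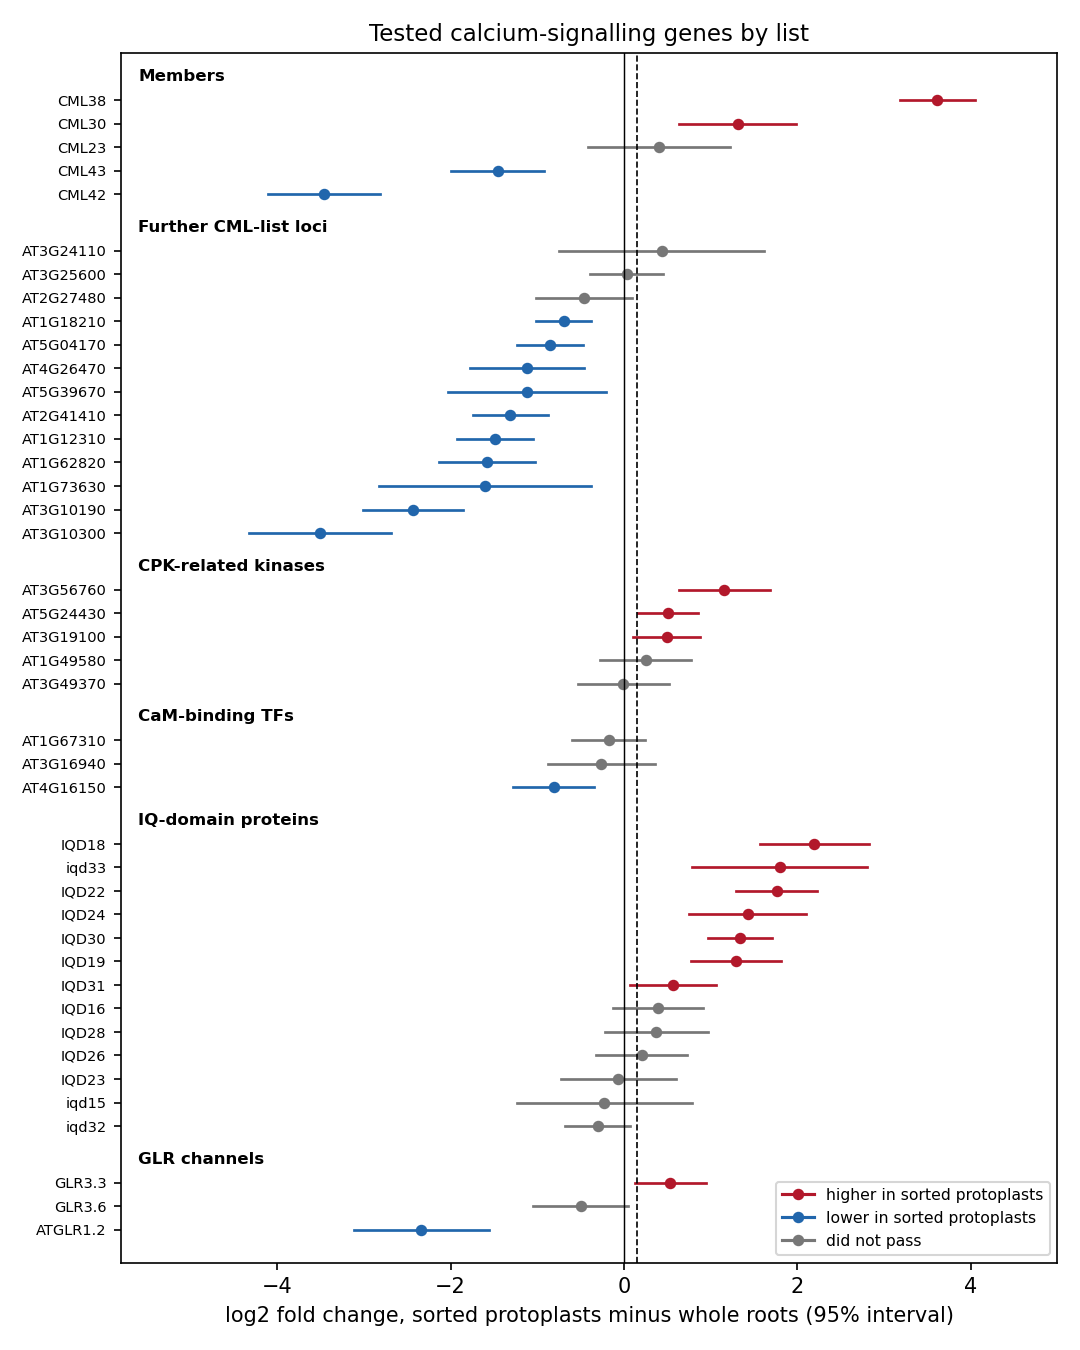
Log2 fold change (sorted protoplasts minus whole roots) with its 95% interval for the tested probe sets of the members and of the calcium lists, without AT1G53210. Points are red where called higher, blue where called lower and grey where the probe set did not pass. The dashed line is the median of all tested probe sets, 0.15. The further CML loci lie mostly below 0, from 0.43 to -3.51, and the IQD genes mostly above it, from 2.19 to -0.30.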

How the data were processed

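The files held 1 intensity value per probe set and array, a linear MAS5 signal that the authors deposited (MAS5 per the submitters' processing notes, version not given in the sources used here). On each array the mean, taken without the highest and lowest 2% of values, was 250.0. The table used here holds no detection calls and no counts, so the number of arrays (3 against 2) limits the precision. From there, log2 of the signal was used without further normalization. The 64 control probe sets and the 40% of the others with the lowest mean log2 value (9099) were left out, and 13647 were tested in limma 3.58.1 under R 4.3.3. The linear model held the group alone, variances were moderated along a mean-variance trend (eBayes), and p-values were adjusted by Benjamini-Hochberg over all tested probe sets.

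Names came from the platform annotation, which gave 1 gene for 13513 probe sets. Gene lengths and synonyms came from the RefSeq table of TAIR10.1, which matched 13436 of these by gene ID. No coordinates are printed, because the sources used here give no build for the array. The rule for named genes was every member, and for each other list the called gene with the largest change in each direction. Any further gene was singled out after its values were seen. Of the 50 listed CML loci, 14 carry that name in the RefSeq table. The lists for calmodulins, CPK, CBL and CIPK families, pumps and exchangers, calcium channels, annexins and kinase targets matched 0 named probe sets by locus, and the GLR genes were matched by gene symbol. The members and lists were chosen with earlier results of these data known, and the IQD list, CaS and AT1G53210 were added after the annotation had been read. Alternatives changed the scaling (median centring, quantile), the pseudocount (32), the filter (none, or 60%), the variance trend (none), the model (replicate number as a block), the change tested (beyond a log2 of 1), the trend with gene length (removed with a loess curve) and the samples (each left out).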

Additional observations from a re-analysis of the deposited data

How the results depend on the processing

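Of 65 values of tested members under alternatives, 60 kept their direction and side of the threshold, 4 lost the call, 1 gained it and 0 changed sign. A test for changes beyond a log2 of 1 called 735 probe sets higher and 1149 lower over the array, 1 member in each direction, 2 further CML loci lower, and 2 and 1 of the other lists together (12 and 2 as reported). That test asks for a larger change by construction. With the length trend removed (7334 probe sets with a length), 2215 and 1776 were called over the array, 1 member lower (2 as reported), 1 further CML locus higher and 4 genes of the other lists lower. AT5G39670, a further CML locus called lower as reported, then had a log2 fold change of 0.013 (limma adjusted p = 0.979). The cause was not tested. Of the further CML loci 0 were called higher as reported, 1 with a pseudocount of 32 and 2 with no filter, where more loci were tested. With a filter at 60%, 2223 probe sets were lower, 6 further CML loci and 0 of the other lists were lower, and no member could be tested. Median centring moved the median of all tested probe sets to 0.39 and the split of calls to 5925 higher and 2876 lower (67.3% higher, against 56.2% as reported), and it changed no member's call.

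Leaving out 1 sample at a time gave 1 to 2 members higher and 2 lower, the single one without whole-root replicate 1. The further CML loci called lower then numbered 7 to 10, and the other lists gave 7 to 12 higher (7 without whole-root replicate 2) and 1 to 4 lower (4 without sorted replicate 1, 1 without whole-root replicate 2). With the replicate number as a block, a fit in which sorted replicate 3 carries no weight, the other lists gave 1 lower, the CPK-related kinases 1 higher (3 as reported), GLR3.3 and AT4G16150 did not pass (adjusted p = 0.128 and 0.0545), 2 members were called in each direction, and 3801 and 3136 probe sets were called over the array. Deviations of same-numbered samples from their group means were nearly uncorrelated (r of 0.0057 and 0.0013). With 2 whole-root arrays these deviations mirror each other, so the values cannot tell whether same-numbered samples were handled together. A lone whole-root sample was assumed to vary like the other group. Dim signals limit the sizes given for CML37, CML38, CML41, CML42, AT1G76640, AT3G10300 and ATGLR1.2.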
